A study of Mus musculus with 28 samples.

Results

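The nuclear genes for the respiratory chain and the ATP synthase were followed in CD4+ T cells at rest and after stimulation through the T cell receptor. The members were all genes whose single gene symbol on the array began with Nduf (complex I), Uqcr (complex III), Cox and a digit (complex IV) or Atp5 (complex V, the ATP synthase), each read through its brightest probe set. They numbered 91 of the 17097 genes measured: 42 of complex I, 7 of complex III, 25 of complex IV and 17 of complex V. Total RNA came from total splenic CD4+ T cells of 12-week-old female mice of C57BL/6, B6.Sle1b or Sle1b.BACSlamf6-H1. B6.Sle1b carries, on the C57BL/6 background, a chromosome 1 interval linked to lupus that spans the SLAM receptor genes, and Sle1b.BACSlamf6-H1 also has a BAC transgene that bears the name of the Slamf6-H1 isoform. Cells of each strain were unstimulated or had been kept for 4 h or 24 h in 96-well U-bottom plates coated with an anti-CD3 antibody at 0.1 µg/ml; the labels name no second stimulus. The 9 strain-by-time groups held 3 arrays each, except C57BL/6 at 24 h with 2, so that 26 arrays titled biological entered the comparisons.

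The respiratory chain passes electrons from NADH and succinate through complexes I and II to ubiquinone, through complex III to cytochrome c, and through complex IV to oxygen. Complexes I, III and IV pump protons across the inner mitochondrial membrane, and the ATP synthase lets them flow back through a rotating ring while its head makes ATP. These 3 complexes and the ATP synthase join subunits made from mitochondrial DNA to others made from nuclear genes, and dedicated assembly factors build it without staying in it. Resting T cells are small and make little new protein, whereas T cells that prepare to divide after receptor stimulation enlarge and increase their mitochondrial mass.

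All values are log2 intensities of a gene's probe set or differences between them, and levels of different genes are not compared because probe sets bind unequally. Background, the 95th percentile of 23 non-specific control probe sets, lay between 2.76 and 3.21 on the arrays. Of the 91 members, 86 stood above it in all 9 groups, and 71 had a probe set among the brightest 10% of all genes. Cox11, Cox4i2, Cox7a1 and Cox7b2 stood at background in every group, and Ndufa4l2 in 4 of the 9. The 7 markers used for CD4+ T cells were Cd3e, Cd3d, Cd3g, Cd4, Cd28, Cd5 and Thy1. They stood above background, 7 of 7, at a mean between 8.89 and 9.52 on every array. Cd4 itself had group means of 5.43 to 6.30. Markers of other cells were present too. In the unstimulated groups Jchain of plasma cells read 11.73 to 12.29, Hba-a1 of erythroid cells 10.58 to 11.80 and H2-Aa of B cells 8.90 to 9.93. Itgam of monocytes or macrophages and Xcr1 of dendritic cells stood at background in every group. At 24 h, over the mean of the strains, 5 of the 7 CD4+ T cell markers fell and 2 rose. Of the markers of other cells, plasma cell markers fell in 2 of 2, erythroid in 2 of 3 and CD8 T cell in 1 of 2 cases, and platelet markers rose in 2 of 3. Of B cell markers 3 of 7 fell and 1 rose, of NK cell markers 2 of 4 fell and 1 rose, of monocyte or macrophage markers 1 of 6 fell and 1 rose, of dendritic cell markers 1 of 4 fell, and of 6 neutrophil markers none passed. Their part in the results on the time course was not tested. In such bulk RNA, more cells of a type and more RNA per cell cannot be told apart. Whether the arrays of a group stand for separate mice is not stated in the labels, and p-values cover only the variation between arrays.

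In 3 arrays a low overall brightness went with high member values. The 75th percentile of intensity was 34.8 on array 2 of unstimulated C57BL/6, 35.6 on array 3 of B6.Sle1b before stimulation and 34.2 on array 2 of Sle1b.BACSlamf6-H1 at 4 h, in a range of 34.2 to 53.3 over all 28 arrays. The 87 members above background in at least 1 group had a higher mean on these arrays than on the other arrays of the same group: 9.14 against 8.73 and 8.81, 9.05 against 8.99 and 8.65, and 8.997 against 8.80 and 8.84. Array 3 of B6.Sle1b at 24 h was as dim, at 35.6, with a member mean of 9.35 against 9.38 and 9.36 on the other arrays of its group. Counts of called members over the mean of the strains are given with and without the first 3, a choice made after seeing the data. Unadjusted counts and medians between strains were not repeated without these arrays.

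Over the time course the members moved mainly between 4 h and 24 h. The mean of the members in C57BL/6 was 8.89 ± 0.22 (SD, n = 3) unstimulated, 9.03 ± 0.10 (n = 3) at 4 h and 9.44 ± 0.06 (n = 2) at 24 h. In B6.Sle1b it was 8.90 ± 0.21, 8.87 ± 0.05 and 9.36 ± 0.02, and in Sle1b.BACSlamf6-H1 8.65 ± 0.08, 8.88 ± 0.10 and 9.33 ± 0.01 (n = 3 each). Every 24 h array of a strain stood above every unstimulated and 4 h array of that strain, whereas unstimulated and 4 h arrays overlapped in C57BL/6 and B6.Sle1b. The spread between unstimulated arrays was the largest of the 3 times in C57BL/6 and B6.Sle1b. The heat map of all members shows the 24 h arrays of each strain as a block of higher values through most of complexes I, III and V, with exceptions in complex IV.

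**Figure D1:**
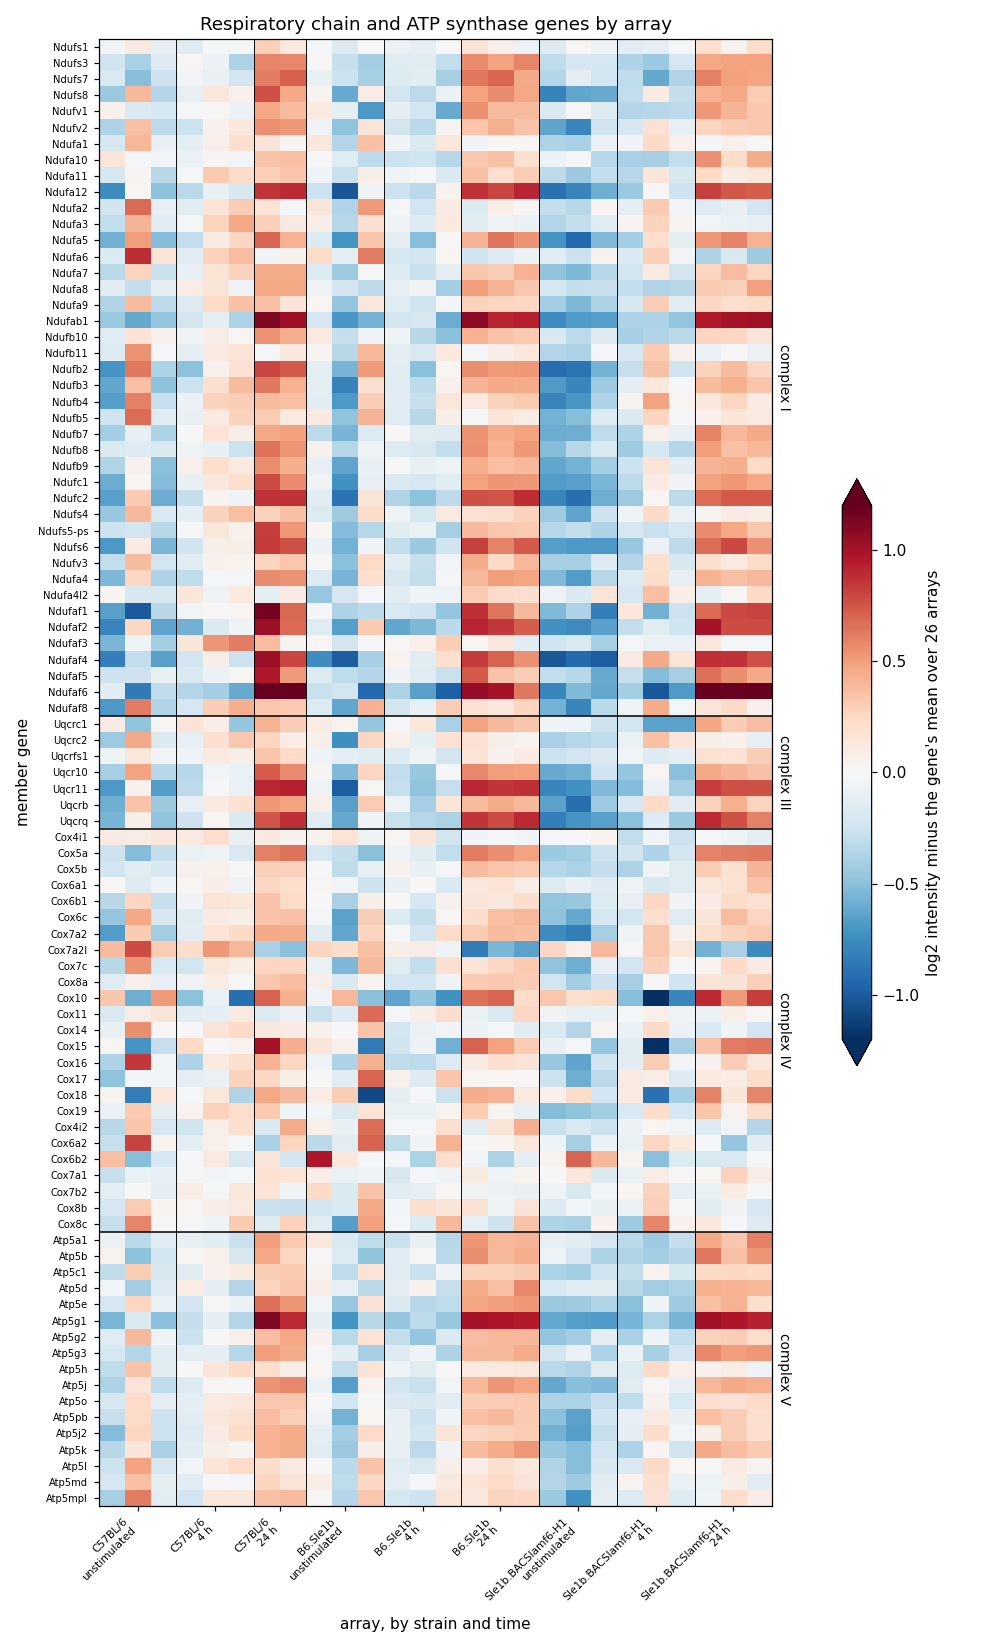
Log2 intensity of each of the 91 members (rows, by complex and role) on each of the 26 arrays (columns, by strain and time), as the difference from the gene's mean over the arrays; red is above and blue below the mean, and values past 1.2 in either direction have the end colour. The 24 h columns are red for most genes, Cox7a2l is blue there, and array 2 of unstimulated C57BL/6 differs from its group.

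**Figure D2:**
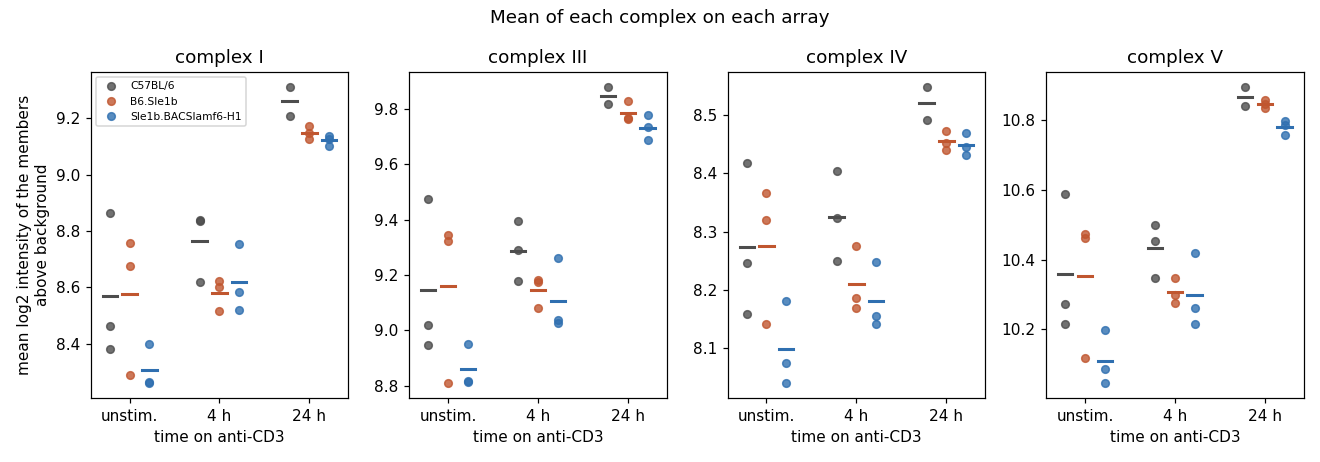
Mean log2 intensity of the members of each complex that stood above background in at least 1 group; each point is an array and each bar the mean of a strain at a time. In all 4 complexes the 24 h arrays lie above all unstimulated and 4 h arrays of their strain.

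At 24 h against unstimulated, taken over the mean of the 3 strains, 69 of 91 members rose and 1 fell (limma, adjusted p under 0.05 over all 17097 genes). That is 75.8% of members higher, beside 22.9% of all genes, and 1.1% lower, beside 17.4%. Among the other genes with a probe set in the brightest 10%, 39.2% rose. The members' median log2 difference was 0.52, against 0.06 for all genes. In C57BL/6 alone 49 members rose and 1 fell, beside 24.3% of all genes called in either direction. In B6.Sle1b 46 rose and 1 fell, beside 28.2%, and in Sle1b.BACSlamf6-H1 61 rose and 1 fell, beside 29.1%. Without the 3 dim arrays 78 rose and 2 fell, beside 31.1% of all genes higher.

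**Figure D3:**
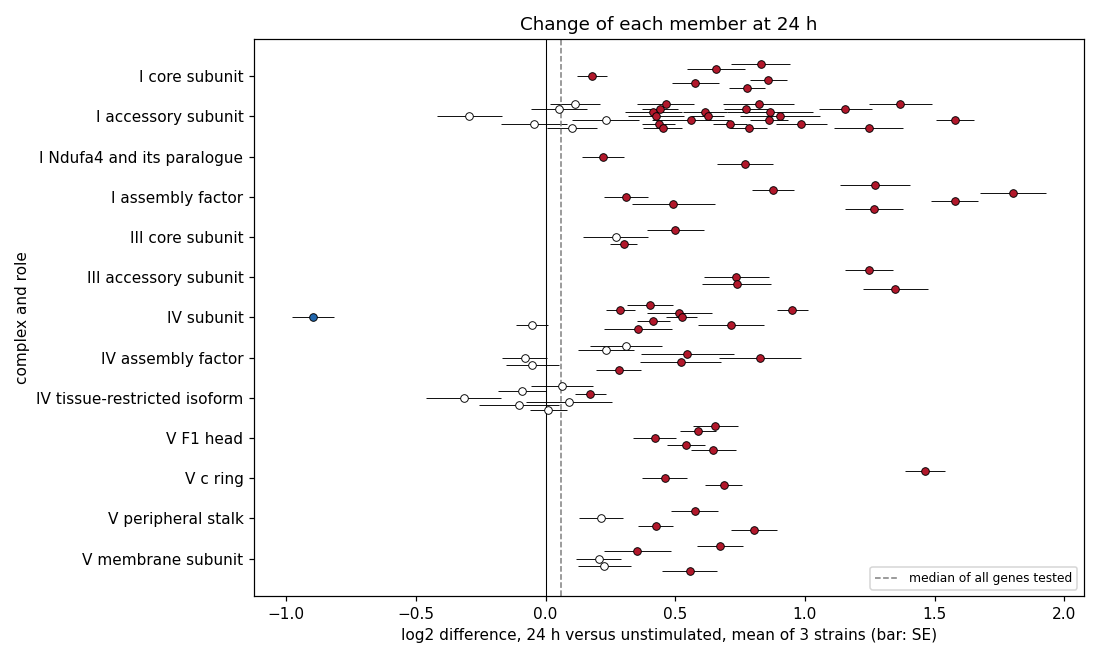
Log2 difference at 24 h against unstimulated, mean of the 3 strains, for each member by complex and role; bars are the standard error, red points passed the test as higher, blue as lower and white points did not pass. Complex I assembly factors reach furthest to the right, the tissue-restricted isoforms of complex IV other than Cox6b2 stay near 0, and Cox7a2l is the 1 blue point.

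Complex I, the NADH dehydrogenase, had 36 of its 42 members higher at 24 h and none lower, with a median log2 difference of 0.68. All 6 nuclear core subunits among the members rose. Core subunits carry the flavin and the iron-sulphur clusters or hold the ubiquinone site. Ndufs7, which holds the iron-sulphur cluster next to ubiquinone, had a lowest, median and highest value of 8.004, 8.27 and 8.43 over 9 unstimulated arrays and of 8.98, 9.12 and 9.23 over 8 arrays at 24 h, a difference of 0.86 ± 0.07 (SE, adjusted p = 1.03e-09). Ndufs3 rose by 0.78 ± 0.07 and Ndufv1, which binds NADH, by 0.58 ± 0.09. The smallest rise among the core subunits was that of Ndufs1, the largest core protein, at 0.18 ± 0.06 (adjusted p = 0.0146), with overlapping arrays, and did not pass once the first C57BL/6 array of the 24 h group was left out (adjusted p = 0.0671), nor did Cox19 of complex IV (adjusted p = 0.069).

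Among the 27 accessory subunits 21 rose. Ndufab1, the mitochondrial acyl carrier protein, which also serves fatty acid and lipoate synthesis, read 9.08, 8.91 and 9.06 on the unstimulated C57BL/6 arrays and 10.64 and 10.55 at 24 h. In B6.Sle1b it read 9.32, 8.83 and 8.96 unstimulated and 10.60, 10.44 and 10.46 at 24 h, and in Sle1b.BACSlamf6-H1 8.77, 8.85 and 8.87 against 10.48, 10.53 and 10.55. No unstimulated array came within 1 log2 unit of the 24 h arrays of its strain. The difference over the strains was 1.58 ± 0.07, or 2.99-fold (adjusted p = 6.02e-14). Ndufa12 rose by 1.37 ± 0.12, Ndufc2 by 1.25 ± 0.13 and Ndufs6, which carries zinc, by 1.16 ± 0.10. The pseudogene symbol Ndufs5-ps, which the platform gives to a probe set that may also read its near-identical parent gene, rose by 0.78 ± 0.07. Ndufa4, named for complex I but since assigned to complex IV, rose by 0.77 ± 0.11, and its paralogue Ndufa4l2 by 0.22 ± 0.08. Ndufa4l2 stood at background in 4 groups, and its call was lost on leaving out any of 9 single arrays (adjusted p up to 0.13).

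The 6 accessory subunits that did not pass were Ndufa1, Ndufa2, Ndufa3, Ndufa6, Ndufb5 and Ndufb11. Their differences ran from −0.29 to 0.23. Ndufa6 had the lowest, −0.29 ± 0.13 (95% interval −0.56 to −0.03, adjusted p = 0.0673), with a lowest, median and highest value of 9.75, 10.06 and 10.89 unstimulated and 9.58, 9.84 and 10.05 at 24 h. The highest unstimulated value was that of the dim C57BL/6 array. For Ndufa2 the interval was −0.31 to 0.22 and for Ndufb11 −0.17 to 0.27, which leaves out the median rise of complex I in both cases.

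All 7 complex I assembly factors of the Ndufaf series that were among the members rose, with a median log2 difference of 1.27. Ndufaf6, needed in early assembly, read 4.70, 3.98 and 4.53 in unstimulated C57BL/6 and 6.43 and 6.18 at 24 h. It read 4.56, 4.61 and 3.90 against 5.89, 5.83 and 5.47 in B6.Sle1b, and 4.05, 4.30 and 4.22 against 6.22, 6.19 and 6.55 in Sle1b.BACSlamf6-H1. The times did not overlap in any strain. The difference of 1.80 ± 0.13, or 3.49-fold (adjusted p = 5.79e-11), was the largest of all 91 members, and at 4 h it had been −0.09 ± 0.12. The other factors were Ndufaf4 at 1.58 ± 0.09, Ndufaf2 at 1.27 ± 0.13, Ndufaf1 at 1.27 ± 0.11, Ndufaf5, which modifies Ndufs7, at 0.88 ± 0.08, Ndufaf8 at 0.49 ± 0.16 and Ndufaf3 at 0.31 ± 0.08.

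Complex III, which moves electrons from ubiquinol to cytochrome c, had 6 of 7 members higher at 24 h, with a median log2 difference of 0.74. The 4 small accessory subunits among the members all rose. Uqcr11 read 8.15, 8.89 and 8.17 in unstimulated C57BL/6, 8.78, 7.85 and 8.86 in B6.Sle1b and 8.07, 8.11 and 8.32 in Sle1b.BACSlamf6-H1. At 24 h the corresponding arrays read 9.75 and 9.76, 9.75, 9.70 and 9.72, and 9.67, 9.62 and 9.60. The times were apart in all strains, and the difference was 1.35 ± 0.12 (adjusted p = 5.15e-09). Uqcrq rose by 1.25 ± 0.09, Uqcrb by 0.74 ± 0.13 and Uqcr10 by 0.74 ± 0.13. Of the 3 larger core members, Uqcrc1 rose by 0.50 ± 0.11 and the Rieske iron-sulphur protein Uqcrfs1 by 0.30 ± 0.05, and Uqcrc2 did not pass at 0.27 ± 0.13 (adjusted p = 0.0954).

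Of the members of complex IV, cytochrome c oxidase, 13 of 25 were higher and 1 was lower, with a median log2 difference of 0.28. Of the 10 widely expressed subunit genes among the members 8 rose. Cox5a, a structural subunit next to the catalytic core, had a lowest, median and highest value of 10.11, 10.34 and 10.43 over the unstimulated arrays and 11.12, 11.24 and 11.29 over those at 24 h, a difference of 0.95 ± 0.06 (adjusted p = 1.34e-11) without overlap. Cox5b rose by 0.52 ± 0.06, Cox8a by 0.42, Cox6b1 by 0.40 and Cox6a1 by 0.29. Cox7c rose by 0.36, a call lost on leaving out any of 9 single arrays (adjusted p up to 0.0835). Cox7a2 rose by 0.72 ± 0.13, but array 2 of unstimulated C57BL/6 stood at 11.45 and array 3 of unstimulated B6.Sle1b at 11.41, inside the 24 h range of 11.34 to 11.60. Cox4i1, the regulatory subunit that binds ATP, lay between 11.01 and 11.24 unstimulated and between 10.95 and 11.19 at 24 h, a difference of −0.05 ± 0.06 (95% interval −0.18 to 0.07).

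Cox7a2l, a relative of Cox7a2 linked to supercomplexes of complexes III and IV, was the 1 member that fell. Supercomplexes were not measured here. It read 10.19, 10.60 and 10.13 in unstimulated C57BL/6 and 9.43 and 9.32 at 24 h. In B6.Sle1b it read 10.08, 10.03 and 10.17 against 8.98, 9.28 and 9.18, and in Sle1b.BACSlamf6-H1 10.07, 9.88 and 10.21 against 9.24, 9.43 and 9.05. Every 24 h array of the 3 strains lay below every unstimulated array. The difference was −0.90 ± 0.08 (adjusted p = 4.45e-09), and its other probe sets gave −0.998 ± 0.08 and −1.06 ± 0.07. At 4 h it had been −0.14 ± 0.08 (adjusted p = 0.269).

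The 7 isoform genes of complex IV known from heart, skeletal muscle, lung or testis stayed low. Cox4i2, Cox7a1 and Cox7b2 stood at background, and Cox6a2, Cox6b2, Cox8b and Cox8c had group means between 3.19 and 4.90. Of the 7, 1 passed the test, Cox7a1 at 0.17 ± 0.06 (adjusted p = 0.0223), at background in both groups and no longer called when the arrays were quantile normalized again. The assembly factors of complex IV were divided. Cox15, of heme a synthesis, rose by 0.83 ± 0.16, Cox18, a membrane insertase, by 0.55 ± 0.18, Cox10, also of heme a synthesis, by 0.52 ± 0.16 and Cox19, a copper-handling protein, by 0.28 ± 0.09. Cox14, Cox16 and the copper chaperone Cox17 did not pass, with differences of −0.08, 0.31 and 0.23, nor did Cox11 at background.

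Complex V, the ATP synthase, had 14 of 17 members higher, with a median log2 difference of 0.56. All 5 genes of the catalytic F1 head and its central stalk rose, within a narrow range: Atp5a1 by 0.59 ± 0.07, Atp5b by 0.65 ± 0.09, Atp5c1 by 0.42 ± 0.08, Atp5d by 0.54 ± 0.07 and Atp5e by 0.65 ± 0.09. Of the peripheral stalk, which keeps the head from turning, Atp5j rose by 0.80 ± 0.09, Atp5pb by 0.57 ± 0.09 and Atp5o by 0.42 ± 0.07, and Atp5h did not pass at 0.21 ± 0.09 (adjusted p = 0.0512). Of 5 small membrane subunits Atp5k, Atp5j2 and Atp5mpl rose, and Atp5l and Atp5md did not pass. The call of Atp5mpl was lost on leaving out any of 7 single arrays (adjusted p up to 0.0757).

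The c ring, the proton-driven rotor, is built from 1 protein that is encoded by 3 genes with different import signals, Atp5g1, Atp5g2 and Atp5g3. All 3 rose, but not alike. Atp5g1 read 9.07, 9.44 and 9.11 in unstimulated C57BL/6, 9.504, 8.90 and 9.28 in B6.Sle1b and 8.996, 8.95 and 8.94 in Sle1b.BACSlamf6-H1. At 24 h it read 10.74 and 10.51, 10.61, 10.59 and 10.56, and 10.62, 10.58 and 10.53, so that the times stood more than 1 log2 unit apart in each strain. Atp5g3 had a lowest, median and highest value of 10.88, 11.07 and 11.26 unstimulated and 11.67, 11.76 and 11.86 at 24 h. For Atp5g2 these were 9.94, 10.30 and 10.81 against 10.63, 10.79 and 10.89, with the dim C57BL/6 array inside the 24 h range. The differences were 1.46 ± 0.08 for Atp5g1 (adjusted p = 4.47e-13), 0.69 ± 0.07 for Atp5g3 and 0.46 ± 0.09 for Atp5g2.

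Whether genes with similar names, which need not be isoforms of 1 subunit, differed in their response was tested on pairs. The measure was the difference between their log2 values on each array. Whether the probe sets of a pair report a change equally was not tested. Times were permuted within strains over all 4000 arrangements (exact, two-sided, 8 arrays at 24 h and 9 unstimulated, 5 pairs, smallest possible p 0.00025). Atp5g1 rose more than Atp5g2 by 1.01 ± 0.07 (exact p = 0.00025, adjusted 0.000417) and more than Atp5g3 by 0.78 ± 0.10 (exact p = 0.0005, adjusted 0.000625). Atp5g3 exceeded Atp5g2 by 0.23 ± 0.13 (exact p = 0.117). Cox5a exceeded Cox5b by 0.43 ± 0.07 (exact p = 0.00025, adjusted 0.000417), and Cox7a2 exceeded Cox7a2l by 1.61 ± 0.11 (exact p = 0.00025, adjusted 0.000417). Cox7a2 and Cox7a2l had already been called in opposite directions on the same arrays, so the p-value of that pair is no separate support. All 5 differences, also that of Atp5g3 and Atp5g2, which did not pass, had the same sign in all 3 strains.

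**Figure D4:**
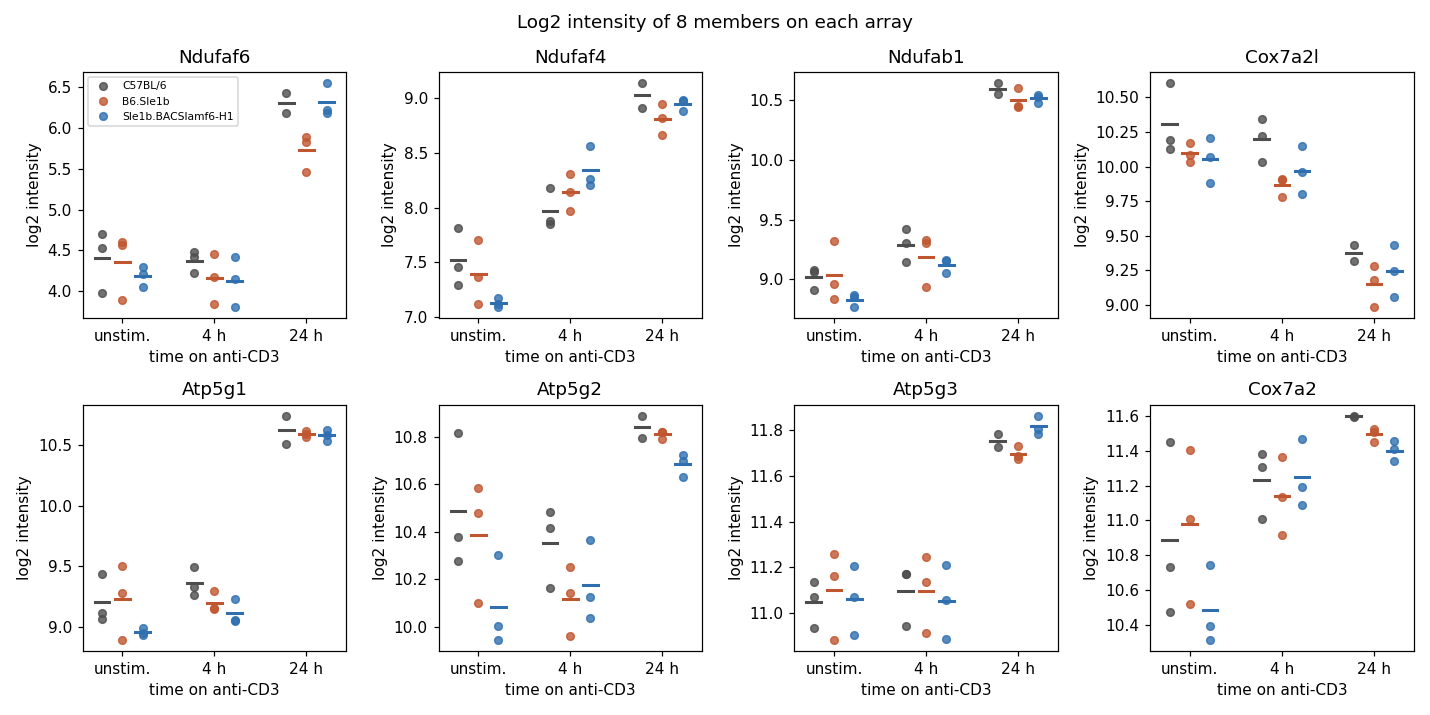
Log2 intensity of 8 members on each array (points) with the mean of each strain at each time (bars); the vertical scale differs between panels. Ndufaf4 is already higher at 4 h, Ndufaf6, Ndufab1 and Atp5g1 rise between 4 h and 24 h, and Cox7a2l falls.

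The promoters of the c ring genes, of Ndufaf4, the member with the largest early rise, and of Cox7a2l, the member that fell, are given from RefSeq on GRCm38.p6, 5′ to 3′ on the gene's strand, from 250 bases before the start site to 50 after it. Atp5g1 lies at chr11:96075582-96075881 on the minus strand, Atp5g2 at chr15:102670998-102671297 (minus), Atp5g3 at chr2:73911277-73911576 (minus), Ndufaf4 at chr4:24897833-24898132 (plus) and Cox7a2l at chr17:83514284-83514583 (minus). Capitals mark matches to GCGCA and GCGC with any 1 base between them, the motif of nuclear respiratory factor NRF1, or to CACGTG, the E-box bound by MYC and other factors, on either strand.
Atp5g1: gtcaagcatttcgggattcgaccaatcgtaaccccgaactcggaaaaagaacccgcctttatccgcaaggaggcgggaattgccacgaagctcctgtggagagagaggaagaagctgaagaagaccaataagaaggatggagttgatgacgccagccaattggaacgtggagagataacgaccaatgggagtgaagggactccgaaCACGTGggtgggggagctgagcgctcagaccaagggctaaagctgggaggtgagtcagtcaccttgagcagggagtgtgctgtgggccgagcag
Atp5g2: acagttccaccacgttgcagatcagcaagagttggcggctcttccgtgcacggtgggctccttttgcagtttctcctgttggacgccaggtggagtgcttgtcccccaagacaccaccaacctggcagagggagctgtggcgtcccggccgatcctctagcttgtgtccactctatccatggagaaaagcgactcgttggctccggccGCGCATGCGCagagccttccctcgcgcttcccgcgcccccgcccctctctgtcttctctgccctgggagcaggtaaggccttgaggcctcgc
Atp5g3: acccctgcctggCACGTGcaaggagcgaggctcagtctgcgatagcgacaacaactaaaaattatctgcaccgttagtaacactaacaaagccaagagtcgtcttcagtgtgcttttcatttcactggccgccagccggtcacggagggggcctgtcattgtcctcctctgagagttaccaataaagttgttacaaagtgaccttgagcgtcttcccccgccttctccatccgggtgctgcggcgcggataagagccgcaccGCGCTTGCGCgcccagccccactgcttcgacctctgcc
Ndufaf4: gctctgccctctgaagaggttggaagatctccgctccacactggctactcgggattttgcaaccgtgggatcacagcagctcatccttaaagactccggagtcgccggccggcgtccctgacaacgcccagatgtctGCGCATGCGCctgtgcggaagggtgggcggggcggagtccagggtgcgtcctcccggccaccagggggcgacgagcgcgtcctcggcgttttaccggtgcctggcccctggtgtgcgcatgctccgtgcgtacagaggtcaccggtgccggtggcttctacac
Cox7a2l: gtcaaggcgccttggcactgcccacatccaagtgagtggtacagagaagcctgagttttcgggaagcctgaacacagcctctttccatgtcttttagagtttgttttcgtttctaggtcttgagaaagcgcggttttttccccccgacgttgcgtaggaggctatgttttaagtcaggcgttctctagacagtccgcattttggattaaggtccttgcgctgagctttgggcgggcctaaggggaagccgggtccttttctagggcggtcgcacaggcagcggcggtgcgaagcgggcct

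Among these sequences the NRF1 motif was found in Atp5g2 (bases −42 to −33 from the start site), Atp5g3 (13 to 22) and Ndufaf4 (−113 to −104), and the E-box in Atp5g1 (−44 to −39) and Atp5g3 (−238 to −233). Cox7a2l held none of the 4 motifs searched. Of the 91 members 73 had an entry in the promoter table, with 79 promoters. On either strand, the NRF1 motif was found in 21.5% of them, against 4.6% of all 32851 promoters of the same length, CCGGAAG (GABPA) in 25.3% against 8.86%, AAGATGG (YY1) in 16.5% against 6.34% and CACGTG in 8.86% against 7.15%. Each motif was counted on its own, also where it overlapped another, and a match is a description of the letters only.

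At 4 h the members as a group moved little. Of 91, 10 were higher and 1 was lower, that is 11% higher beside 8.15% of all genes and beside 22.8% of the other genes in the brightest 10%, and 1.1% lower beside 10.1%. The median log2 difference was 0.10, against 0.02 for all genes. Without the 3 dim arrays 39 members were higher and 2 lower, beside 11.9% of all genes higher and 16.5% lower. Within strains, 2 members were called higher in C57BL/6, beside 7.04% of all genes called in either direction, 1 higher in B6.Sle1b, beside 5.69%, and 6 higher and 1 lower in Sle1b.BACSlamf6-H1, beside 10.6%. Over the mean of the strains, leaving out array 2 of unstimulated C57BL/6 alone gave 30 higher, beside 9.35% of all genes, and leaving out array 3 of unstimulated B6.Sle1b alone gave 21, beside 8.74%.

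The largest early rise was that of Ndufaf4, a complex I assembly factor. It read 7.29, 7.81 and 7.46 in unstimulated C57BL/6 and 7.88, 8.18 and 7.85 at 4 h, 7.37, 7.12 and 7.71 against 8.15, 7.97 and 8.30 in B6.Sle1b, and 7.09, 7.17 and 7.12 against 8.21, 8.56 and 8.26 in Sle1b.BACSlamf6-H1. The times did not overlap within a strain. The difference was 0.80 ± 0.09 (adjusted p = 4.21e-07), followed by a further 0.78 ± 0.09 between 4 h and 24 h. Ndufaf3, which acts with Ndufaf4, rose by 0.39 ± 0.08 at 4 h (adjusted p = 0.000953) and stood at −0.08 ± 0.08 between 4 h and 24 h.

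The other 8 members higher at 4 h were Cox7a2, Ndufc1, Ndufb9, Ndufb7, Ndufa12, Ndufaf1, Ndufab1 and Cox5a, with differences of 0.17 to 0.43. The calls of Cox5a and Ndufa12 were each lost on leaving out any of 19 of the 26 arrays. That of Ndufaf1 was lost on leaving out any of 17. The highest adjusted p among these was 0.121, for Ndufa12. With arrays centred on their median, the adjusted p of Cox5a was 0.233. Ndufab1 was lost without the 3 dim arrays, and Cox7a2 with only the groups compared in the fit (adjusted p = 0.0534). Cox10 was the 1 member lower at 4 h. It read 6.05, 5.13 and 6.23 unstimulated and 5.23, 5.64 and 4.82 at 4 h in C57BL/6, 5.68, 6.12 and 5.22 against 5.09, 5.26 and 4.9965 in B6.Sle1b, and 6.05, 5.91 and 5.95 against 5.21, 4.53 and 4.94 in Sle1b.BACSlamf6-H1. The arrays were apart in Sle1b.BACSlamf6-H1 and overlapped in the other strains. The difference was −0.74 ± 0.15 (adjusted p = 0.000914), and from 4 h to 24 h Cox10 rose by 1.26 ± 0.16 (adjusted p = 6.45e-07). Its rise at 24 h against unstimulated passed over the mean of the strains but in no strain alone.

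Between 4 h and 24 h, 57 members rose and 1, Cox7a2l, fell, 62.6% higher beside 20.5% of all genes and 35.2% of the other genes in the brightest 10%, and 1.1% lower beside 14.1%. Without the 3 dim arrays 64 rose, and Cox7a2l and Cox8b fell, beside 22.8% of all genes higher and 17.6% lower. In the main fit the median log2 difference was 0.41, against 0.02 for all genes. Within strains 30 rose and 1 fell in C57BL/6, beside 18.6% of all genes called in either direction, 48 and 1 in B6.Sle1b, beside 24.2%, and 45 and 1 in Sle1b.BACSlamf6-H1, beside 24.8%. By complex, 30 of 42 members of complex I, 6 of 7 of complex III, 8 of 25 of complex IV and 13 of 17 of complex V rose. Ndufaf6 rose by 1.90 ± 0.13, Atp5g1 by 1.37 ± 0.08 and Ndufab1 by 1.34 ± 0.07 over this interval. These 3 comparisons share arrays, so their values stand side by side and are not independent.

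No member passed the test between strains at any time or over the mean of the times, nor in any difference between strains in the response to stimulation. Few genes of any kind did. Between B6.Sle1b and C57BL/6, 0.123% of all genes were called unstimulated, 0.0409% at 4 h, 0.0409% at 24 h and 0.333% over the mean of the times. Between Sle1b.BACSlamf6-H1 and B6.Sle1b the shares were 0.0819%, 0%, 0% and 0.0819%, and between Sle1b.BACSlamf6-H1 and C57BL/6 0.0585%, 0.0643%, 0.0351% and 0.228%. In the responses, 0.00585% were called at 24 h between Sle1b.BACSlamf6-H1 and B6.Sle1b and 0% otherwise. With estimated array weights, whose estimation did not converge, 71 members were called lower and 1 higher in unstimulated Sle1b.BACSlamf6-H1 against B6.Sle1b, beside 17.3% of all genes lower and 6.25% higher. In unstimulated B6.Sle1b against C57BL/6 they gave 22 higher and 3 lower, beside 11.2% and 4.07%. With array brightness as a covariate, 3 members were called lower in Sle1b.BACSlamf6-H1 against C57BL/6 over the mean of the times, beside 0.667% of all genes. The lowest adjusted p of a member was 0.104, for Ndufb10, an accessory subunit of complex I, in Sle1b.BACSlamf6-H1 against C57BL/6 over the mean of the times. Ndufb10 read 8.17, 8.49 and 8.36 in unstimulated C57BL/6 and 8.13, 7.999 and 8.16 in Sle1b.BACSlamf6-H1. At 4 h it read 8.27, 8.40 and 8.33 against 7.92, 7.95 and 7.99, and at 24 h 8.85 and 8.75 against 8.57, 8.56 and 8.47. The arrays of both strains did not overlap at any of the 3 times, and the difference was −0.30 ± 0.07 (95% interval −0.44 to −0.15). Lack of overlap at a given time was not particular to Ndufb10. Between these strains the arrays of 18 of 91 members lay apart and lower unstimulated, 15 at 4 h and 40 at 24 h. Those apart and higher numbered 0, 1 and 2. The share over all genes was not counted.

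Without adjustment, 30 members (33%) passed p under 0.05 in that contrast, beside 6.86% of all genes, all lower in Sle1b.BACSlamf6-H1, with a median log2 difference of −0.17. Within times, 20 passed unstimulated, beside 5.66% of all genes, all lower and with a median of −0.26. At 4 h 15 passed, 14 of them lower, beside 5.77%, and at 24 h 0 passed, beside 2.29%. In unstimulated Sle1b.BACSlamf6-H1 against B6.Sle1b 25 passed, all lower, beside 8.13%, with a median of −0.27 and a smallest adjusted p of 0.377. B6.Sle1b and C57BL/6 differed unadjusted in 2 members unstimulated, 8 at 4 h and 3 at 24 h, beside 4.14%, 3.61% and 4.71% of all genes. The unadjusted 95% interval of a member's difference at a single time reached, in the median, 0.32 or 0.36 to either side, and differences as large as −0.73, of Ndufb2 in unstimulated Sle1b.BACSlamf6-H1 against B6.Sle1b, did not pass the adjusted test.

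**Figure D5:**
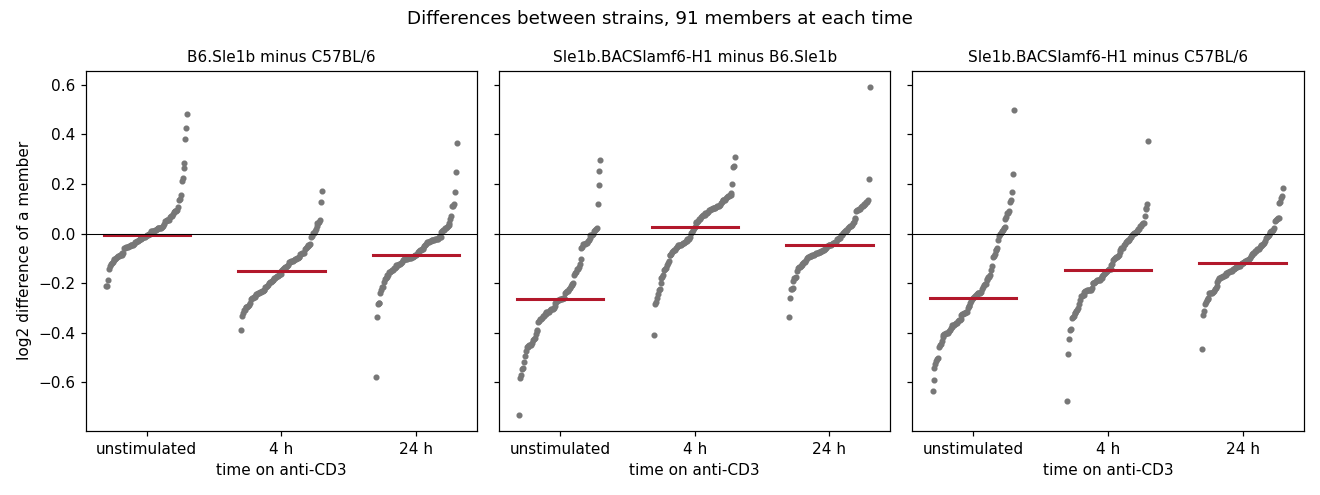
Log2 difference between 2 strains for each of the 91 members (points, sorted) at each time, with their median (bar). The medians lie lowest, at −0.27 and −0.26, for unstimulated Sle1b.BACSlamf6-H1 against B6.Sle1b and C57BL/6; no single point passed the test.

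The 3 dim arrays, each with the highest member mean of its group, lay in unstimulated C57BL/6, unstimulated B6.Sle1b and Sle1b.BACSlamf6-H1 at 4 h. None lay in unstimulated Sle1b.BACSlamf6-H1, whose member means ran from 8.60 to 8.74. The other unstimulated arrays had member means of 8.73 and 8.81 in C57BL/6 and of 8.99 and 8.65 in B6.Sle1b. Markers of other cells also differed between strains. Over the mean of the times, the 7 B cell markers were all below 0 in B6.Sle1b against C57BL/6, with 4 called and a median log2 difference of −0.67, and in Sle1b.BACSlamf6-H1 against C57BL/6, with 2 called and a median of −0.65. The 6 neutrophil markers were all above 0 in both contrasts, with 0 and 1 called and medians of 0.91 and 0.89, and both plasma cell markers were above 0, with none called and medians of 0.64 and 0.56. In unstimulated Sle1b.BACSlamf6-H1 against B6.Sle1b no marker of these cells or of erythroid cells was called, with medians of 0.02 for B cell, 0.26 for neutrophil, −0.29 for plasma cell and −0.64 for erythroid markers. Their part in the strain differences was not tested. Ndufaf6 had the widest spread between strains at 24 h, with B6.Sle1b at 5.47 to 5.89, C57BL/6 at 6.18 and 6.43 and Sle1b.BACSlamf6-H1 at 6.19 to 6.55, and its response differed between Sle1b.BACSlamf6-H1 and B6.Sle1b by 0.76 ± 0.30 (adjusted p = 0.911).

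Genes outside the naming rule that serve the same pathway were taken from lists of known components. Beside their counts at 24 h stand 22.9% of all genes higher and 17.4% lower. Complex II, succinate dehydrogenase, had 3 of 4 members higher at 24 h, Sdhc by 0.85 ± 0.15, Sdhd by 0.81 ± 0.11 and Sdhb by 0.55 ± 0.08, and Sdha did not pass at 0.17 ± 0.08. Cytochrome c, Cycs, rose by 0.68 ± 0.11 at 4 h and 1.24 ± 0.11 at 24 h, and cytochrome c1, Cyc1, by 0.94 ± 0.08 at 24 h. The ATP synthase inhibitor Atpif1 did not pass, at −0.33 ± 0.18 (adjusted p = 0.172). Of 26 assembly factors with other names 22 rose, led by Lrpprc, which stabilises mitochondrial mRNA, at 1.88 ± 0.23 and the complex III factor Uqcc2 at 1.63 ± 0.11, and 1 fell, the complex III factor Ttc19, at −0.36 ± 0.14. Of 11 tricarboxylic acid cycle genes 8 rose, led by fumarase, Fh1, at 1.43 ± 0.07. Of 6 genes of uncoupling and of other routes into ubiquinone 2 rose, Dhodh of pyrimidine synthesis by 1.59 ± 0.17 and Etfa of fat oxidation by 1.01 ± 0.07, and Etfdh fell.

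Genes that copy or read mitochondrial DNA, and regulators of nuclear respiratory genes, moved in both directions, beside 22.9% of all genes higher and 17.4% lower at 24 h. Of 9 mitochondrial DNA genes 4 rose, led by Tfb1m at 1.17 ± 0.12 and Ssbp1 at 1.01 ± 0.09, and 3 fell, with the DNA polymerase subunits Polg2 at −2.00 ± 0.13 and Polg at −1.19 ± 0.17. Of 8 regulators 4 rose, led by Myc at 2.84 ± 0.15 and Pprc1 at 1.38 ± 0.24, and 3 fell, Gabpb1 at −2.06 ± 0.12, Nrf1 at −1.10 ± 0.14 and Yy1 at −0.46 ± 0.09. Mitochondrial ribosomal protein genes rose in 71 of 73 cases, with a median of 1.002, and cytosolic ribosomal protein genes in 11 of 66, with 10 lower and a median of 0.01, both shares below those of all genes. Over the 9 group means, the 5 other genes whose profile was most like the mean of the members were Fdx1 and Sdhb (Pearson r 0.9963 each), Grpel1 (0.9962), Lsm6 and Mrpl11 (0.9957 each), out of 12481 genes above background; group means share arrays and normalization, so this is a description.

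Probe sets of a gene did not always move together. Of 42 members with 2 or more probe sets above background, 36 had all of them on the same side of 0 at 24 h. In Cox5b and Ndufs4 a dim probe set was called in the opposite direction. For Cox5b 2 bright probe sets gave 0.52 ± 0.06 and 0.56 ± 0.06, and a dim one, with a mean level of 3.63, gave −0.77 ± 0.15. For Ndufs4 the brightest gave 0.41 ± 0.11, and of the dim ones one gave 0.46 ± 0.06 and the other −1.36 ± 0.14. Which transcripts the dim probe sets read was not analysed here.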

How the data were processed

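RNA from splenic CD4+ T cells was hybridised to single-colour Affymetrix mouse arrays. Per the submitters' processing notes the deposited values were made with RMA, which corrects background, quantile normalizes and summarises probes; its version is not given in the sources used here. From their size the deposited values are linear intensity, and log2 was taken here. Each gene was read through the brightest probe set with that single symbol. One limma (3.58.1, R 4.3.3) model gave each of the 9 groups a mean over 26 arrays; standard errors use the moderated variance, and a gene was called at a Benjamini-Hochberg adjusted p under 0.05 over 17097 genes. The 2 arrays titled technical were left out.

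The members and gene lists were chosen with earlier results of these data known. Named were, by rule, the 3 called members of each complex with the largest rise and fall whose arrays did not overlap within strains, isoform families, assembly factors, members with opposed probe sets and the leading genes of each list; further members were added so that each role was covered, after their values were seen. The tests were tried on simulated data for 24 h against unstimulated with 17097 genes, of which 50 were changed at each of 4 sizes. Of these, 60% were called at a log2 size of 0.5, 96% at 1 and 100% at 1.5 and 2. Noise was drawn independently for each gene, without deviations shared by an array, and few genes were changed. The shares called describe that setting only and do not give the power in these data. Precision is set by how many arrays a group holds. Alternatives were repeated normalization, the mean of all probe sets, a filter on dim genes, only the groups compared, array brightness or weights, another variance prior, all 28 arrays, a replicate block, and leaving out each array; leaving out 3 dim arrays was added after seeing the data. Deviations of arrays of different groups with the same replicate number had a mean r of 0.071 (100 pairs, −0.815 to 0.816). For 200 pairs of different number it was −0.029 (−0.818 to 0.835). These pairs also join arrays of different strains, so they cannot decide whether arrays of a strain were paired over times. The labels name no pairing, and the numbers were not taken as pairs in the main fit. Promoters were taken from RefSeq on GRCm38.p6.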

Additional observations from a re-analysis of the deposited data

How the results depend on the processing

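Of the members called over the mean of the strains, 61 of 70 at 24 h, 6 of 11 at 4 h and 53 of 58 between 24 h and 4 h passed in all 37 settings. With the replicate number as a block, 71 members were higher and 1 lower at 24 h, and 10 and 1 at 4 h, and no count moved past 1.5 times. The dim-gene filter moved none either. Over the mean of the strains, the count of members lower at 24 h was 1 and became 2 after quantile normalization, centring, the mean of all probe sets, another variance prior or leaving out the 3 dim arrays, 3 with array weights or all 28 arrays, and 5 with brightness as covariate. The count higher at 4 h was 10 and became 5 with only the groups compared, 16 with brightness, 33 with weights and 39 without the dim arrays; the count lower became 2 with the mean of probe sets, 4 with brightness, 4 with weights and 2 without the dim arrays. Between 4 h and 24 h the count lower became 2 with only the groups compared, 3 with brightness and 2 without the dim arrays. In C57BL/6 alone, the 2 members higher at 4 h became 4 with the mean of probe sets, 0 with only the groups compared, 9 with brightness, 42 with weights and 22 without the dim arrays, and the 0 lower became 1 after quantile normalization, with brightness, with weights and without the dim arrays; the median of 0.12 became 0.24 with weights and 0.25 without the dim arrays. At 24 h in C57BL/6 the 49 higher became 19 with only the groups compared and the 1 lower became 2 with brightness, and between 4 h and 24 h the 30 higher became 53 with brightness and the 1 lower became 2 with brightness or without the dim arrays. In B6.Sle1b, the 1 member higher at 4 h became 0 with only the groups compared and 5 with weights, and the 0 lower became 3 with brightness, 18 with weights and 1 without the dim arrays; at 24 h the 46 higher became 30 with only the groups compared, and the 1 lower became 2 with the mean of probe sets, 5 with brightness, 4 with weights and 2 without the dim arrays. Its medians of 0.47 at 24 h and 0.48 between 4 h and 24 h became 0.27 and 0.35 with brightness, where the count lower became 2. In Sle1b.BACSlamf6-H1, the 6 higher at 4 h became 10 with brightness and 3 with weights, the median of 0.25 became 0.12 with brightness, the 1 lower at 24 h became 2 with only the groups compared, brightness or weights, and the median of 0.36 between 4 h and 24 h became 0.48 without the dim arrays. Between strains, where no member was called, weights gave 22 higher and 3 lower in unstimulated B6.Sle1b against C57BL/6, 1 higher and 71 lower in unstimulated Sle1b.BACSlamf6-H1 against B6.Sle1b, 33 lower in the 4 h response of B6.Sle1b against C57BL/6, and 17 higher and 1 lower in the 24 h response of Sle1b.BACSlamf6-H1 against B6.Sle1b. For Sle1b.BACSlamf6-H1 against C57BL/6, brightness gave 2 lower at 4 h and 3 lower over the mean of the times, where all 28 arrays gave 1. Leaving out 1 array in turn, the count higher at 4 h ranged from 7 to 30 over the mean of the strains, from 1 to 7 in C57BL/6 (0 to 1 lower) and from 1 to 19 in Sle1b.BACSlamf6-H1 (0 to 1 lower), the highest each time without array 2 of unstimulated C57BL/6. In C57BL/6 the count higher at 24 h ranged from 27 to 57 and between 4 h and 24 h from 14 to 36, the lowest both times without array 1 at 24 h, which leaves 1 array assumed to vary like the other groups. The count lower ranged from 1 to 2 over the mean of the strains at 24 h and between 4 h and 24 h, and in B6.Sle1b at 24 h. Medians ranged from 0.052 to 0.25 in C57BL/6 and from −0.15 to 0.073 in B6.Sle1b at 4 h, from 0.31 to 0.52 in B6.Sle1b at 24 h, and from 0.32 to 0.48 in Sle1b.BACSlamf6-H1 between 4 h and 24 h. With the mean of all probe sets, Ndufs4 turned to −0.16 at 4 h (adjusted p = 0.0391) and −0.16 at 24 h (adjusted p = 0.0224), and Atp5c1 to −0.011 at 24 h (adjusted p = 0.932), which follows from averaging in their dim probe sets. The cause of the other changes was not tested. Signal near background limits Cox11, Cox4i2, Cox7a1, Cox7b2 and Ndufa4l2.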

Other observations

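The 2 arrays titled technical, of C57BL/6 at 24 h, had member means of 9.47 and 9.41, beside 9.48 and 9.40 on the biological arrays of that group.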
